A study of Homo sapiens with 4 samples.

Results

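The genes described here are PLK2, PLK3, GADD45A, GADD45B, GADD45G, CDKN1A, CDKN1B, MDM2, SESN1 and CCNG1, a set known for growth arrest and the response to DNA damage. They were taken as every probe whose annotated gene symbol is one of these names, which gave 11 probes for 10 genes, out of 26423 probes and 17778 named genes. GADD45B had 2 probes and each other member had 1. The set was selected on the berberine-against-control differences of these same arrays, in which PLK3 and GADD45A were large, and filled up with related genes. The values of the members are therefore a description. No p-value is given for a member, and the counts of members past a threshold were partly fixed by that choice.

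The labels give the cells as HepG2, an established human line from a hepatocellular carcinoma. The 2 control samples had no berberine, and the 2 treated samples had 26.95 µM berberine, a plant alkaloid, for 24 hours. All 4 were labelled with Cy5 and, by the labels, grown in DMEM with serum and antibiotic. The description field of the same samples gives other conditions, an MDI differentiation for 48 hours with 13.47 µM berberine in the treated pair. This conflict was not resolved, and the identity of the RNA is in doubt. The labels do not say that replicates came from separate cultures, so the spread between them may be technical.

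Several features of the arrays bear on every value below. The probe identifiers are those of a mouse array while the labels name human cells, so each value is the signal of a mouse probe, named by its platform annotation. Deposited median intensities ran from 62 to 90, and the number of arrays limits the precision. As a guide to background, the 528 genes named for mouse olfactory receptors had a median signal of 6.05 and a 95th percentile of 9.24 on the log2 scale. Of 14 measured markers of hepatocytes and HepG2 cells, 1 (RBP4, a retinol carrier) exceeded that percentile, and AFP, a fetal plasma protein made by these cells, read 4.75. The summed hepatocyte signal, on the linear scale after normalization, was 16797 to 17957 in controls and 8228 to 9854 with berberine. Without RBP4 it was 2171 to 2336 in controls and 1687 to 2027 with berberine. In a limma fit whose variance follows signal, called the trend below, RBP4 fell by 1.08 (adjusted p = 0.025) and FGG, a fibrinogen chain, fell by 1.77 (adjusted p = 0.0163). Without the trend neither passed, with adjusted p of 0.132 and 0.0688 by limma. The 11 measured adipocyte markers summed to 2635 to 4260 in controls and 2352 to 3331 with berberine, and SLC2A4 and CD36 exceeded the percentile. None of the 11 passed either limma fit, FABP4 being at 1.00 and RETN at -1.20 (adjusted p = 0.143 and 0.233, with the trend 0.060 and 0.111). The part of these markers in the results below was not tested.

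Growth arrest after stress runs along a few connected routes. DNA damage switches on CDKN1A, whose product p21 blocks the cyclin-dependent kinases that drive cells into S phase, and MDM2, a ubiquitin ligase that damps the damage response. The GADD45 proteins are small acidic proteins that bind p21, PCNA and stress kinases, and are induced by many stresses. PLK2 and PLK3 are polo-like kinases induced early by serum or stress, unlike PLK1, which serves mitosis. In liver, GADD45B and p21 are known from regeneration, where hepatocytes leave and re-enter the cell cycle.

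The human start-site regions of PLK3, PLK2, GADD45B and CDKN1A are shown because these genes stand for the set's kinases, a GADD45 gene with probes that disagree, and the classical inhibitor of the cell cycle. Each is the 250 bases before the RefSeq start in GRCh38.p14, read along the gene's strand. The PLK3 window lies at chr1:44800127-44800376 (plus strand), PLK2 at chr5:58460087-58460336 (minus strand), GADD45B at chr19:2475877-2476126 (plus strand) and CDKN1A at chr6:36678464-36678713 (plus strand). Capitals mark TATAA, the core of the TATA box, on the gene's strand, and 4 other matches on either strand: the box CCAAT bound by NF-Y, the GC box GGGCGG bound by SP1, the cyclic AMP response half-site TGACG, and the AP-1 letters TGANTCA.
PLK3: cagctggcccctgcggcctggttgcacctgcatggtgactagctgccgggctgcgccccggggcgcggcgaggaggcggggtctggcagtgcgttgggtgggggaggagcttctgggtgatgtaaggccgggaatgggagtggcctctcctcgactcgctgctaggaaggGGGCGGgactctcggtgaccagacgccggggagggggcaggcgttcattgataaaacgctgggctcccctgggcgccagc
PLK2: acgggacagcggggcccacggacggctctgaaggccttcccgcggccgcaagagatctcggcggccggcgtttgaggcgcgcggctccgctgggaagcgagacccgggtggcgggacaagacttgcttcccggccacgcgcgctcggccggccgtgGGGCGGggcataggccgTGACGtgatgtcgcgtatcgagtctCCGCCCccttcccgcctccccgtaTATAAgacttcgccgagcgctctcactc
GADD45B: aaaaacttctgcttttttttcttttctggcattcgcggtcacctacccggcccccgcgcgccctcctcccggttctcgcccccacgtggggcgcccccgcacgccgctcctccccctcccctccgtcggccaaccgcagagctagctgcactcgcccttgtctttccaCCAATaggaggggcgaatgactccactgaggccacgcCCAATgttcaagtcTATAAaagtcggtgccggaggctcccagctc
CDKN1A: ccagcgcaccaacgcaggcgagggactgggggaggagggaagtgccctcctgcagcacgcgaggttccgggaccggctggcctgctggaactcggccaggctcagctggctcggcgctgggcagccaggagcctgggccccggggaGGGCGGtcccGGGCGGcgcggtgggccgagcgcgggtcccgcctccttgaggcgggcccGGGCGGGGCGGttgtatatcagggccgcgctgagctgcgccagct

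These letters differ between the genes. TATAA was in the windows of PLK2, GADD45B and GADD45G, 3 of the 9 members with a window, and in 13.6% of all 35116 windows. In PLK2 it began 28 bases before the start, in GADD45G 27 and in GADD45B 31. GGGCGG was in the windows of 7 of 9 members and in 42.6% of all windows, with 4 matches in CDKN1A (1 pair of them overlapping), 2 in PLK2 and 1 in PLK3. CCAAT was in 6 of 9 members and 32% of all windows, and the E-box CACGTG in GADD45B and GADD45G and 6.34% of all windows. TGACG, which is also contained in the longer TGACGTCA, was found for PLK2 and SESN1 and in 21.2% of all windows. TGACGTCA was in 0 of 9 members and 1.65% of all windows, and TGANTCA in MDM2 and 6.57%. The CArG box of serum response factor had a match for 0 of 9 members and in 1.16% of all windows. MDM2, SESN1 and CCNG1 had several windows, so 15 member windows were searched, and a gene was counted if any window matched. A match is a description of letters only, and GADD45A had no entry in the table.

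PLK3 was the member with the highest berberine signal relative to its controls. PLK3 is a stress-responsive serine-threonine kinase. Controls 1 and 2 had deposited intensities of 2927 and 2637, where berberine 1 and 2 had 9190 and 10014. After quantile normalization the log2 signals were 11.33 and 11.39 in controls and 13.37 and 13.25 with berberine. Both treated samples were far above both controls, and the gaps between replicates were 0.06 and 0.12. The means were 11.36 ± 0.04 and 13.31 ± 0.09 (SD, n = 2 in each group), a difference of 1.94 with an SE of 0.115, or 3.85-fold. This was the 21st highest difference of all 17778 named genes. In bulk RNA a change in the number of expressing cells and a change in RNA per cell cannot be told apart.

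PLK2, the closest relative of PLK3 in the set and a regulator of centriole duplication, also had both treated samples above both controls. Its intensities were 163 and 128 in controls and 268 and 267 with berberine. Both controls read 7.17 on the log2 scale, and the treated samples read 8.27 and 8.03. The difference was 0.98 with an SE of 0.136, or 1.97-fold. All 4 PLK2 values lay under the olfactory receptor 95th percentile of 9.24, a range that olfactory receptor probes also cover.

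**Figure D1:**
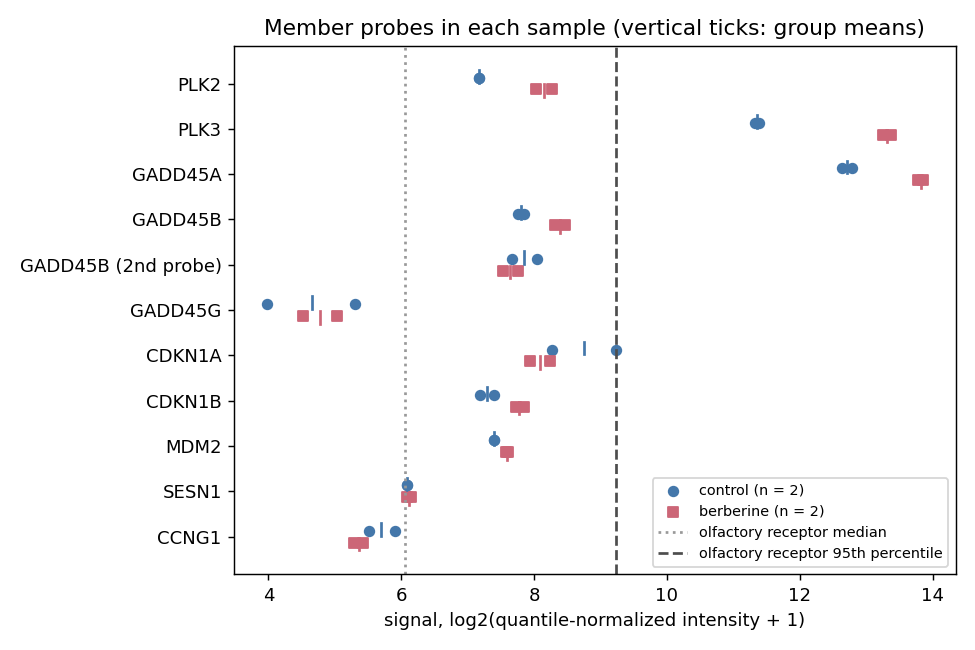
Log2 signal of the 11 member probes (x axis, log2 of quantile-normalized intensity + 1) in the 2 control samples (circles) and 2 berberine samples (squares), with group means as ticks and the olfactory receptor median (dotted) and 95th percentile (dashed) as vertical lines. PLK3 and GADD45A lie wholly to the right of the dashed line with the groups apart, while the CDKN1A controls, at 9.23 and 8.27, lie far from each other.

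Of the GADD45 genes, GADD45A could be read above background. GADD45A, induced by DNA damage and by many other stresses, had intensities of 7821 and 6035 in controls and 12118 and 15196 with berberine. Its log2 signals were 12.78 and 12.64 in controls and 13.78 and 13.85 with berberine, so the groups were apart by more than either replicate gap. The means were 12.71 ± 0.09 and 13.82 ± 0.05 (SD, n = 2 in each group), a difference of 1.11 with an SE of 0.117, or 2.16-fold. It ranked 158th from the top of the named genes.

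GADD45B, which is known to be induced by NF-kB and TGF-beta and to restrain JNK signalling through MKK7, gave opposite signs on its 2 probes. The probe with the higher mean read 261 and 200 in controls and 277 and 357 with berberine, or 7.85 and 7.76 against 8.32 and 8.46 on the log2 scale. Both treated samples were above both controls, by 0.59 with an SE of 0.119. The second probe read 300 and 188 in controls and 164 and 221 with berberine, or 8.04 and 7.66 against 7.53 and 7.76. On that probe the groups overlapped, and the difference was -0.21 with an SE of 0.189. Both probes lay under 9.24, and no direction is given for GADD45B as a gene.

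GADD45G, best known from development and from its silencing in tumours, was near the bottom of the scale. Its intensities were 49 and 2 in controls and 28 and 36 with berberine. On the log2 scale the controls read 5.31 and 3.98 and lay on either side of the treated samples, at 4.52 and 5.04. The difference was 0.14 with an SE of 0.515. It was 1.42 for intensities as deposited, 1.31 with median centring, and -0.42 without control 2, the array with 269 values below 0 and an intensity of 2 for this probe. All 4 values were under the olfactory receptor median of 6.05, so the probe gave no usable direction.

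The cyclin-dependent kinase inhibitors among the members read in opposite directions, both with means under the olfactory receptor 95th percentile of 9.24. CDKN1A, which encodes p21, read 688 and 296 in controls and 260 and 252 with berberine. On the log2 scale the controls were 9.23 and 8.27 and the treated samples 8.24 and 7.94. Both treated samples were below both controls, but control 2 and berberine 1 differed by far less than the controls did from each other. The means were 8.75 ± 0.67 and 8.09 ± 0.21 (SD, n = 2 in each group), and the difference was -0.66 with an SE of 0.366. It was -0.18 without control 1 and -1.11 without control 2, so its size rested on which control was kept.

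CDKN1B encodes p27, an inhibitor of CDK2 complexes that holds cells in quiescence and is controlled largely through protein turnover. It read 164 and 151 in controls and 201 and 219 with berberine. The log2 signals were 7.19 and 7.39 in controls and 7.85 and 7.72 with berberine. The treated samples were both higher, by 0.49 with an SE of 0.133, or 1.41-fold, and every value was under 9.24.

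The other members that DNA damage is known to switch on had small differences or lay near background. MDM2 read 192 and 152 in controls and 171 and 202 with berberine, or 7.39 and 7.40 against 7.57 and 7.61 on the log2 scale. After normalization the groups were apart by a difference of 0.19 with an SE of 0.106, which shrank to 0.01 with median centring. SESN1, a sestrin that links stress to AMPK and mTORC1, read 78 and 51 in controls and 69 and 72 with berberine. Its log2 signals were 6.09 and 6.09 in controls and 6.15 and 6.09 with berberine, a difference of 0.03 with an SE of 0.107. CCNG1, the cyclin G1 that recruits a phosphatase to MDM2, read 69 and 31 in controls and 40 and 46 with berberine. Its log2 signals were 5.90 and 5.51 in controls and 5.29 and 5.43 with berberine, a difference of -0.34 with an SE of 0.18. Berberine 2 and control 2 of CCNG1 lay closer together than its controls did, and all 4 values were under the olfactory receptor median. The CCNG1 difference was -0.11 for intensities as deposited.

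Counts over the set were read beside those over all genes. After quantile normalization, both treated samples lay above both controls for 6 of 10 members and below them for 2, with overlap for GADD45G and SESN1. GADD45B was counted here and below by its probe of higher mean, while its second probe overlapped, at -0.21. The difference was above 0 for 8 of 10 members and for 48.6% of all genes. Over all named genes the groups did not overlap for 45%, with berberine above for 21.7% and below for 23.3%. With limma's moderated test and Benjamini-Hochberg adjustment, 0 of 10 members passed 0.05, where 0.0506% of all genes did. At an unadjusted p under 0.05 the limma count was 5 of 10 members, and 13% of all genes. With the trend, PLK2, PLK3 and GADD45A were past the threshold, 3 of 10 members, where 1.46% of all genes were. Because the set was chosen with this contrast known, nothing is read from these counts. The median difference was 0.34 over the members and -0.01 over all genes.

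**Figure D2:**
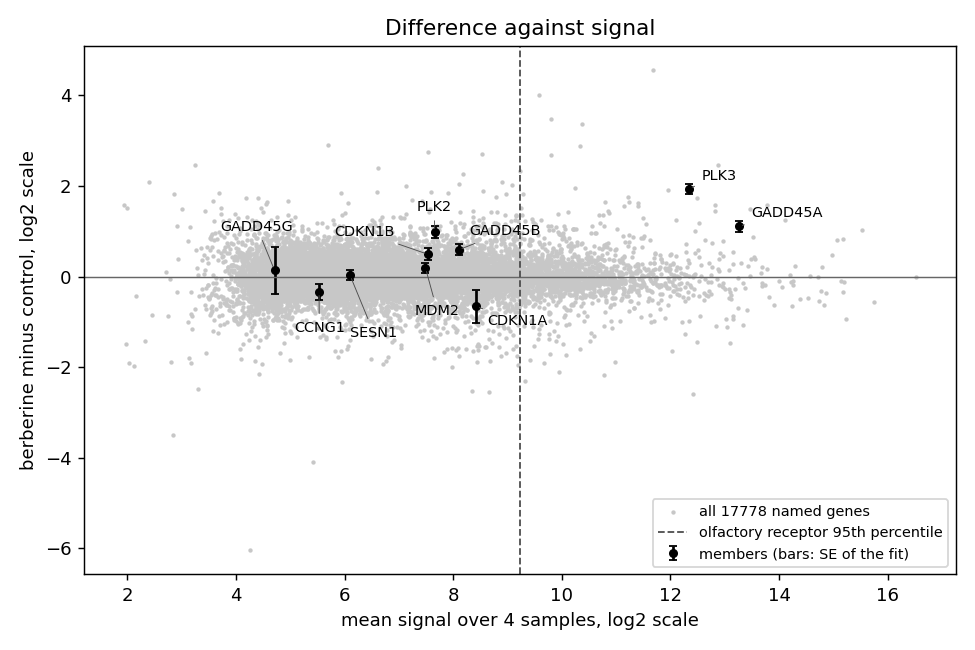
Berberine minus control (y axis, log2 scale) against mean signal over the 4 samples (x axis, log2 scale) for all 17778 named genes (grey) and the 10 members (black, with the SE of the fit), 1 probe a gene; the dashed line is the olfactory receptor 95th percentile of 9.24. PLK3 at 1.94 and GADD45A at 1.11 lie to the right of the line and above most of the grey points, and the other 8 members lie to its left.

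Set beside genes of similar signal, 3 members passed the 95th percentile of size, which is again a description of the contrast that chose them. When all genes were put in 10 equal groups by mean signal, the 95th percentile of the absolute difference was 1.087 in the top group, which holds PLK3 and GADD45A. It was 0.751 in the group of PLK2, which read 0.98. The other 7 members were under the percentile of their own groups, among them CDKN1A, at -0.66 against 0.902, and GADD45B, at 0.59 against 0.751. The spread between replicates comes from the arrays on which the set was chosen, so it is a description too. The replicate SD was above the median of the signal group for 5 members, among them PLK2, at 0.123 against 0.109. PLK3 had a replicate SD of 0.068 and GADD45A of 0.076, where the median gene of their group had 0.080. For CDKN1A it was 0.499, against a median of 0.099 in its group, and for GADD45G 0.717 against 0.344. MDM2 and SESN1, at 0.022 and 0.031, were below the medians of 0.109 and 0.180.

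Scaling moved the members' values without changing the sign of the ones described as apart. For MDM2 and CCNG1 the groups were apart after quantile normalization but overlapped in the intensities as deposited. PLK3 ranged from 1.67 with median centring to 2.01 without berberine 2, GADD45A from 0.87 to 1.16, PLK2 from 0.77 to 1.11 and CDKN1B from 0.30 to 0.57. In 8 members, on the probe used for the gene, the sign was the same in every setting that held them. MDM2 was among these, though it read 0.01 with median centring. GADD45G turned, and SESN1 read 0.00 without berberine 1.

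**Figure D3:**
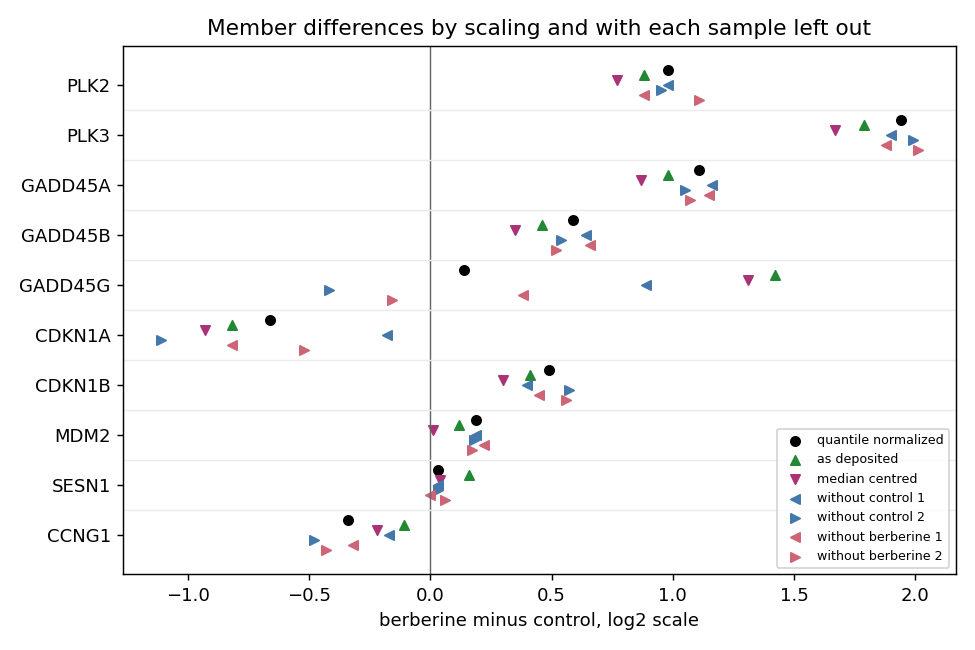
Berberine minus control (x axis, log2 scale) for each member gene on its probe of highest mean, under quantile normalization, as deposited, with median centring and without each sample in turn. PLK3 stays between 1.67 and 2.01, whereas GADD45G runs from -0.42 to 1.42 and CDKN1A from -1.11 to -0.18.

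Genes with a pattern like that of PLK3 were sought over the 4 samples, among genes with a mean above the median gene. The measure was the Euclidean distance between log2 signals, each gene centred on its own mean. The 5 nearest were CCL20 at 0.134, CHD2 at 0.137, IER5 at 0.140, MAST4 at 0.143 and IFRD1 at 0.173. CCL20 is a chemokine, CHD2 a chromatin remodeller and IER5 an immediate early gene. Their differences ran from 1.82 for IFRD1 to 1.97 for CHD2. CCL20, IER5 and MAST4 had means under 9.24. Among the members GADD45A was nearest to PLK3, at 0.859, with 84 other genes closer, and PLK2 followed at 0.970. With 4 samples, this distance reflects mainly the size of the berberine difference.

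The other genes of the growth arrest pathway were compared between berberine and control samples as lists drawn up by function. Of 57 listed genes 49 had a probe. With limma and Benjamini-Hochberg adjustment over all named genes, 0 of 49 passed 0.05, where 0.0506% of all genes did. With the trend 0 of 49 passed, where 1.46% of all genes did. At an unadjusted limma p under 0.05 there were 6, of which 3 were higher, and 8 with the trend, where 13% of all genes were under it without the trend and 14.7% with it. The median difference of the 49 was 0.02, against -0.01 over all genes, and 4 had means above 9.24. The groups were apart for 13 upward and 15 downward, beside the same 21.7% and 23.3% of all genes.

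Of 21 measured targets of the DNA damage response outside the members, 3 had both treated samples above both controls and 9 below, where 21.7% and 23.3% of all genes did. Their median difference was -0.03. BBC3, which encodes the proapoptotic protein PUMA, had the smallest p. It read 6.55 and 6.11 in controls and 7.09 and 7.29 with berberine, 0.86 higher (SE 0.197, adjusted p = 0.264 by limma, with the trend 0.145). BBC3 lay under 9.24 in all 4 samples, and 1 gene of this list, EI24, had a mean above it.

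Among 5 checkpoint regulators, the kinase ATR was at -0.20 (SE 0.142, adjusted p = 0.586 by limma). The polo-like kinases outside the set differed from PLK2 and PLK3 in their values. PLK1 was at -0.01, PLK5 at -0.06 and PLK4, the kinase of centriole duplication, at -0.23 (SE 0.179, adjusted p = 0.628 by limma). The mean signals of PLK1, PLK5 and PLK4 were 8.21, 6.68 and 5.21, all under 9.24. PLK4 lay under the olfactory receptor median of 6.05. Whether PLK2 and PLK3 differ from these kinases in response was not tested, since PLK2 and PLK3 were chosen with the contrast known.

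Among 5 other cyclin-dependent kinase inhibitors, CDKN2A had the smallest p, at 0.35 (SE 0.136, adjusted p = 0.403 by limma). CDKN1C, the p57 relative of p21 and p27, read 10.22 and 10.20 in controls and 10.46 and 10.39 with berberine, at 0.21 (limma adjusted p = 0.477). The largest difference of this list, and of all 49 genes, was that of CDKN3, a phosphatase that acts on cyclin-dependent kinases. CDKN3 read 5.40 and 4.55 in controls and 3.70 and 4.38 with berberine, both treated samples lower, at -0.94 (SE 0.395, adjusted p = 0.42 by limma). Its 4 values were under the olfactory receptor median of 6.05. CCNG2, a relative of CCNG1, was at 0.26 (SE 0.118, adjusted p = 0.448 by limma), and the sestrins SESN2 and SESN3 were at 0.02 and 0.23. Of 4 measured partners of GADD45 proteins, the stress kinase MAPK14 was at 0.43 (SE 0.147, adjusted p = 0.367 by limma). MAP3K4, a kinase that GADD45 proteins activate, was at -0.51 (SE 0.206, adjusted p = 0.41 by limma). MAPK14 had a mean of 6.80, under 9.24, and the 4 MAP3K4 values were under the olfactory receptor median.

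The kinases and cyclins that p21 and p27 bind, with the ligase SKP2, had 9 measured genes. Of these 4 were apart upward and 3 downward, where 21.7% and 23.3% of all genes were. CCND3, a D-type cyclin of G1, had the smallest p. It read 11.61 and 11.48 in controls and 11.21 and 11.23 with berberine, a difference of -0.33 (SE 0.115, adjusted p = 0.377 by limma, with the trend 0.167). CDK6, a kinase partner of D-type cyclins, was at 0.28 (SE 0.111, adjusted p = 0.407 by limma). Both had means above 9.24.

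**Figure D4:**
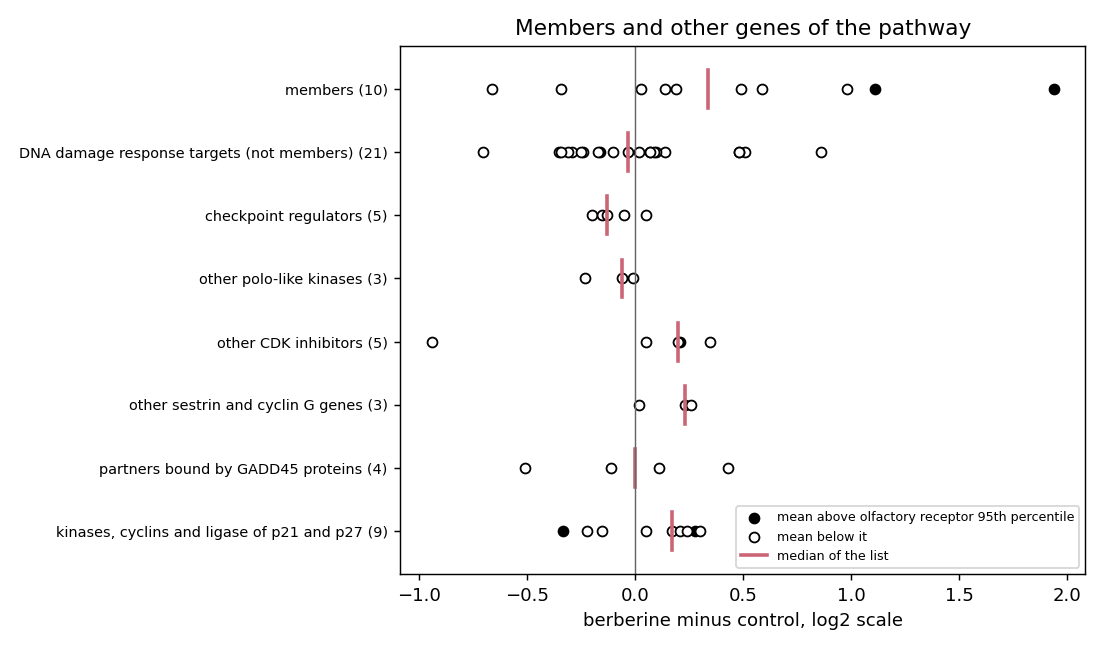
Berberine minus control (x axis, log2 scale) for the 10 members and the measured genes of 7 lists of the same pathway (number measured in brackets), filled where the mean signal was above the olfactory receptor 95th percentile, with the median of each list as a bar. The list values lie between -0.94 and 0.86, and PLK3 at 1.94, GADD45A at 1.11 and PLK2 at 0.98 lie beyond them; the members were chosen with this contrast known.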

How the data were processed

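The deposited table holds array intensity values on a linear scale for 4 one-colour arrays, as made by the authors. How they were scanned, background-corrected and normalized is not stated in the labels, and 3 samples hold values below 0. The platform annotation named 20377 probes, and the other 6046 were not tested. Quantile normalization was applied over all probes, a floor of 0 was set, and log2(value + 1) gave the scale of every fold change. A gene was represented by its probe of highest mean. limma 3.58.1 in R 4.3.3 (lmFit, eBayes, 2 residual degrees of freedom, 2-sided, Benjamini-Hochberg over 17778 genes, threshold 0.05) was checked on simulated data. An exact permutation test cannot go below 0.333 here. Promoter letters came from RefSeq. Figures used matplotlib 3.10.9 in Python 3.11.15.

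The members, lists and tests were chosen with earlier results of these data known. The named genes were every member, the gene of each list with the smallest p, and the 5 genes nearest to PLK3. Genes named outside this rule, after their values were seen, are EI24, PLK1, PLK5, CDKN1C, CDKN3, MAP3K4, SESN2, SESN3, CDK6, SKP2 and the markers. Alternatives were other scalings, a pseudocount of 50, leaving out the dimmest 30% of genes, an intensity trend, each probe as its own row, the replicate number as a block, and each sample left out. Results that need 1 further gene are not reported here.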

Additional observations from a re-analysis of the deposited data

How the results depend on the processing

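The count of all named genes past the limma threshold was 9 (8 higher, 1 lower). It was 2 for values as deposited (2 higher, 0 lower), 0 with median centring, 251 with a pseudocount of 50 and 138 without the dimmest 30% of genes. It was 260 with an intensity trend, 3 with each probe as its own row and 264 with each probe and the trend, the last 2 being counts out of 20377 probes. Without each sample in turn it was 0. The members were chosen with this contrast known, so nothing is read from their counts. The count of member genes, 0 of 10, was 3 with a pseudocount of 50, 3 with the trend and 3 with each probe and the trend. It was 2 without the dimmest 30% of genes, a setting of 12444 genes that left out GADD45G and CCNG1. It was 0 in the other settings, and without each sample in turn limma's unadjusted p was under 0.05 for 4 to 7 members and for 7.79% to 16% of all genes. The count of pathway list genes was 0 in every setting with all 4 samples. In those settings limma's unadjusted p was under 0.05 for 0 to 8 of them, and for 2.76% to 18.1% of all genes or probes fitted. All 49 were fitted except in the setting without the dimmest 30% of genes, which left out those among them. With the replicate number as a block the count of all genes was 0, with 1878 at an unadjusted limma p under 0.05. Replicate differences in the 2 groups correlated at 0.0904 across all 17778 named genes, many of them dim. This value cannot decide whether samples with the same replicate number shared a culture or a batch, which was not tested. Each fit without 1 sample leaves a group of 1, assumed to vary like the other group. Signal over background limits 8 of the 10 members, whose means lay below the olfactory receptor 95th percentile.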
